A study of Mus musculus with 12 samples.

Results

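The genes described here are 7 targets of the peroxisome proliferator-activated receptors (PPARs) that are known to be induced by fasting: Angptl4, Acot1, Acot2, Ucp2, Ucp3, Pdk4 and Fgf21. They were taken by gene symbol from the table of read counts, which lists 23457 genes, and all 7 were found there. The list was drawn up with the results of the Parkin KO against noninduced comparison already known, so the fold changes between these groups are given as a description, with no test. Of the 7 genes, 6 had enough reads for the fit across all genes, and Fgf21 did not.

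Polyadenylated RNA was sequenced from 12 mouse hearts of the C57BL/6J background, 6 in each group, in a study of what removal of Parkin from the adult heart does to its transcripts. The Parkin KO mice carried floxed Parkin and MERCreMer, a Cre recombinase that tamoxifen activates, and were induced as adults. The noninduced mice carried floxed Parkin and no Cre. The labels date both groups to 9 to 10 weeks after tamoxifen, name the whole heart as the tissue, and describe RNA from the ventricular apex. By the labels, MERCreMer was present in the Parkin KO group only, so loss of Parkin and the presence of an activated Cre cannot be told apart. The title calls the knockout cardiac-specific, but the sources used here do not give the promoter that drove MERCreMer. The labels number the hearts from 1 to 6 within each group and give no sex, feeding state or hour of collection. The p-values below take the library as the unit and set differences or correlations against the spread between these libraries.

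PPARs are nuclear receptors that fatty acids activate. They bind DNA as partners of the retinoid X receptors and raise the transcription of genes for the uptake and burning of fat. When food is short and blood fatty acids are high, they act in the liver and, mostly through PPARα and PPARδ, in heart and skeletal muscle. In the heart, this program moves fuel use from glucose to fat, and the 7 genes cover several of its steps: a block on glucose oxidation (Pdk4), a brake on fat entry from blood (Angptl4), uncoupling proteins of the inner mitochondrial membrane (Ucp2 and Ucp3), enzymes that release fatty acids from coenzyme A (Acot1 and Acot2), and a fasting hormone (Fgf21).

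The libraries held 13787150 to 16736228 counts in the Parkin KO group and 11610507 to 16884516 in the noninduced group. Park2, the gene of Parkin, was counted at 25, 45, 36, 44, 30 and 24 reads in the libraries labelled Parkin KO 1 to 6, against 24, 34, 31, 29, 39 and 45 reads in those labelled noninduced 1 to 6. The groups overlapped fully, at 2.22 ± 0.638 CPM in the Parkin KO group and 2.31 ± 0.510 CPM in the noninduced group (SD, n = 6 each), with a log2 fold change of -0.05 (SE 0.208, edgeR adjusted p = 0.930). CPM are counts scaled to the size of each library. The count of the deleted gene thus did not separate the groups. The sources used here do not give which exons were floxed, and a count over the whole gene does not show whether they were lost. Parkin KO is therefore the labels' name for these hearts, and every difference below rests on the labels. MERCreMer contains part of the estrogen receptor, so its reads can be counted on Esr1. Esr1 stood at 1553 to 4683 CPM across the Parkin KO group and at 24.0 to 962 CPM across the noninduced group, where the libraries labelled noninduced 1 and noninduced 3 held 558 and 962 CPM. The other noninduced libraries held at most 64.9 CPM. The labels give no Cre for noninduced 1 and 3, and the source of their Esr1 reads was not tested. Reads of 4 Y-linked genes (Uty, Kdm5d, Ddx3y and Eif2s3y) summed to 590, 495 and 634 reads in Parkin KO 2, 5 and 6, against 1, 7 and 0 reads in Parkin KO 1, 3 and 4. In the noninduced group they summed to 178 reads in library 3 and to at most 5 reads in the others. Xist, which is transcribed from the inactive X chromosome of females, was at most 5.3 CPM in Parkin KO 2, 5 and 6 and at least 77.2 CPM in every other library, so that noninduced 3 held both kinds of transcript. The 13 protein-coding genes of mitochondrial DNA took 4.79% to 8.98% of the counts of a Parkin KO library and 6.25% to 15.4% of those of a noninduced library. The 3 Parkin KO libraries with many Y-linked reads, and the 2 noninduced libraries of highest Esr1, stand apart in this way. Fold changes, the order of levels and the spread among hearts are given with and without them. So are the correlations that passed over all 12 libraries. The genes of most similar pattern are given with all 12 libraries only.

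All 7 genes are protein-coding. In mouse assembly GRCm38, Acot2 (chromosome 12, 83987861 to 83993873, plus strand) and Acot1 (84009490 to 84018371, plus strand) are neighbours 15616 bases apart. Ucp3 (chromosome 7, 100472990 to 100486432, plus strand) and Ucp2 (100493337 to 100502020, plus strand) are also neighbours, with 6904 bases between them. Fgf21 lies elsewhere on chromosome 7 (45613886 to 45615490, minus strand), Pdk4 on chromosome 6 (5483351 to 5496309, minus strand) and Angptl4 on chromosome 17 (33773750 to 33781830, minus strand). Among the 7, only Ucp2 has exons that overlap those of another gene, Dnajb13 on the opposite strand, over 4.36% of their length. The libraries kept no strand, so reads in that overlap cannot be assigned to either gene.

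The Acot pair is close in sequence, which bears on how reads can be assigned to either gene. Over 1236 aligned coding bases of Acot1 and Acot2, 1178 are identical (95.3%), with a longest identical run of 273 bases. A stretch of 100 coding bases is shown to make this likeness visible, from coding base 30 to 129 in Acot1 and from 153 to 252 in Acot2. The capitals mark the 4 bases at which the genes differ.
Acot1: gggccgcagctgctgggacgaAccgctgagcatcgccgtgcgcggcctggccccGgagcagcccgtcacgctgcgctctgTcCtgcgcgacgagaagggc
Acot2: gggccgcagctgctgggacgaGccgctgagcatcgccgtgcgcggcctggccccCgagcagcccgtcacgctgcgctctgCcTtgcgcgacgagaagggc
Of all windows of 36 bases in the Acot1 transcript, 27.2% also occur in the Acot2 transcript, and 16.5% of windows of 100 bases do. For the other close relatives, Acot3 to Acot6, the shares are 15.7% and 5.38%. Ucp2 and Ucp3 share no window of these lengths.

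Promoters were searched because Pdk4 and Ucp3 varied together from heart to heart, as described below. RefSeq promoter sequences (GRCm38.p6, 250 bases before to 50 bases after the start) were at hand for 6 of the 7 genes, all but Angptl4. The PPAR response element is a direct repeat of AGGTCA with a spacer of a single base, searched on both strands as AGGTCANAGGTCA. No exact match was found in the 6 promoters, and 13 of 32851 promoters (0.0396%) hold one. With up to 2 mismatches, 3.86% of all promoters hold a match, and of the 6 only that of Ucp3 does: AGGTTTCAGGTCA, beginning 51 bases before the start. The single hexamer AGGTCA, which 16.3% of promoters hold, also occurs among the 6 in Ucp3 only, once inside the longer match and once 149 bases before the start. The matches stand in capitals in the Ucp3 promoter (chr7:100472741-100473040, plus strand), and the Pdk4 promoter (chr6:5496229-5496528, minus strand), which holds neither motif in this window, is set beside it.
Ucp3: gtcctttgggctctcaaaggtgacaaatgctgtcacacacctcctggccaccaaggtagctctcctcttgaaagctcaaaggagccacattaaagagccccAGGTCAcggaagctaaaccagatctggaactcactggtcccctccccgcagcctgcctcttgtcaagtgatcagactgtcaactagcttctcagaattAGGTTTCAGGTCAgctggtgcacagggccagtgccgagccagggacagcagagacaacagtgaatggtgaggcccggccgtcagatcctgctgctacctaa
Pdk4: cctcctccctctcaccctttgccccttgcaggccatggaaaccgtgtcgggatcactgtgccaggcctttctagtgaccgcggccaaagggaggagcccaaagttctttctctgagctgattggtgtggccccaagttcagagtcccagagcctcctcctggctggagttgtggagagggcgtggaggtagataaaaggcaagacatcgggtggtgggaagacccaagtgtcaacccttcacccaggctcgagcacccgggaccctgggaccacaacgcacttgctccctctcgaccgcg
A match is a description of these letters and was not tied to binding by any measurement here.

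Pdk4 encodes a kinase that switches off the pyruvate dehydrogenase complex and so spares glucose. It had 105, 426, 220.5, 191, 399 and 621 CPM in Parkin KO hearts 1 to 6, against 140, 118, 212, 202, 219 and 109 CPM in noninduced hearts 1 to 6, from 1567 to 9700 and from 1246 to 3685 reads per library. The 3 highest values were those of Parkin KO 2, 5 and 6, the libraries with many Y-linked reads, while the lowest value of all was also that of a Parkin KO heart, so the groups overlapped. The means were 327 ± 190 CPM in the Parkin KO group and 167 ± 49.8 CPM in noninduced hearts (SD, n = 6 each), a log2 fold change of 0.97 with an SE of 0.345.

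Angptl4 encodes a secreted inhibitor of lipoprotein lipase, the enzyme that frees fatty acids from circulating triglyceride. It had 2.81, 17.9, 8.81, 5.20, 14.8 and 42.5 CPM in Parkin KO hearts 1 to 6, against 4.44, 1.80, 9.07, 6.69, 6.17 and 3.84 CPM in noninduced hearts 1 to 6. Again Parkin KO 2, 5 and 6 were highest, and the other 3 Parkin KO hearts lay within the noninduced range. Parkin KO 6 alone, with 664 reads, exceeded every other heart by more than the whole noninduced range. The means were 15.3 ± 14.5 and 5.33 ± 2.53 CPM in the Parkin KO group and noninduced hearts (SD, n = 6 each), and the log2 fold change was 1.50 with an SE of 0.531, or 0.86 without Parkin KO 6.

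Ucp3 encodes the uncoupling protein of muscle mitochondria, whose transcript follows fatty acid supply in heart and skeletal muscle. It had 25.4, 120, 106, 87.8, 92.1 and 163 CPM in Parkin KO hearts 1 to 6, against 46.3, 33.0, 66.5, 55.8, 69.4 and 21.0 CPM in noninduced hearts 1 to 6. All Parkin KO hearts but the first stood above the highest noninduced heart, whether they held Y-linked reads or not, and the first overlapped with the low noninduced hearts. The means were 99.0 ± 45.0 CPM in the Parkin KO group and 48.7 ± 19.0 CPM in noninduced hearts (SD, n = 6 each), a log2 fold change of 1.02 with an SE of 0.352.

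Ucp2 encodes a related carrier of the inner membrane that is expressed in many tissues and strongly in immune cells. Its mean was lower in Parkin KO, with 79.3, 154, 99.4, 89.4, 168 and 152 CPM in Parkin KO hearts 1 to 6, against 168, 193, 134, 130, 260 and 95.3 CPM in noninduced hearts 1 to 6. The lowest Parkin KO values were those of hearts 1, 3 and 4, without Y-linked reads, and the groups overlapped. The means were 124 ± 38.7 CPM in the Parkin KO group and 163 ± 57.9 CPM in noninduced hearts (SD, n = 6 each), a log2 fold change of -0.40 with an SE of 0.237. The 11 measured macrophage markers summed to 212 to 352 CPM in the Parkin KO group and 267 to 348 CPM in noninduced libraries, with medians of 245 and 288 CPM, and 9 of the 11 had a fold change below 0. The part of these cells in the Ucp2 level was not tested beyond a correlation of Ucp2 with this sum, by the method described below. With each group's mean subtracted, r was 0.20 over the 12 hearts (adjusted permutation p = 0.815). It was 0.64 within the Parkin KO group and -0.58 within the noninduced group, and passed in neither. In bulk tissue, fewer cells of a type and less RNA per cell cannot be told apart.

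Acot2 encodes the mitochondrial acyl-CoA thioesterase. Its level was nearly the same in both groups, at 48.4, 99.7, 81.8, 66.2, 88.8 and 86.8 CPM in Parkin KO hearts 1 to 6, against 102, 88.0, 75.0, 55.3, 80.9 and 34.9 CPM in noninduced hearts 1 to 6. The hearts of each group spanned most of the same range. The means were 78.6 ± 18.4 and 72.7 ± 24.2 CPM in the Parkin KO group and noninduced hearts (SD, n = 6 each), and the log2 fold change of 0.11 was smaller than its SE of 0.223.

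Acot1 encodes the cytosolic acyl-CoA thioesterase. It was counted at 1.74, 3.87, 3.24, 3.33, 4.25 and 8.13 CPM in Parkin KO hearts 1 to 6, against 1.42, 1.99, 2.20, 2.59, 2.67 and 0.329 CPM in noninduced hearts 1 to 6. As with Ucp3, all Parkin KO hearts but the first stood above the highest noninduced heart. These values rest on only 26 to 127 reads in Parkin KO and 6 to 45 reads in noninduced libraries. The means were 4.09 ± 2.16 and 1.87 ± 0.879 CPM in the Parkin KO group and noninduced hearts (SD, n = 6 each), a log2 fold change of 1.13 with an SE of 0.399. In the deposited FPKM values (fragments scaled to transcript length and sequencing depth), Acot1 averaged 20.9 ± 5.82 in Parkin KO and 14.4 ± 4.18 in noninduced hearts (SD, n = 6 each), and its log2 fold change was 0.51 with a pseudocount of 1 and 0.54 with a pseudocount of 0.1, a smaller difference than in the counts.

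The counts and the FPKM values of Acot1 did not scale alike. It had 2.56 counted reads for each FPKM unit over all libraries, from 0.819 to 4.40 per library, whereas Acot2, whose transcript is of nearly equal length (2196 bases, against 2272 for Acot1), had 23.7. The ratio of Acot1 to Acot2 was 0.360 to 0.491 in Parkin KO and 0.246 to 0.427 in noninduced hearts in FPKM, but 0.0359 to 0.0937 and 0.00943 to 0.0468 in counts. The absolute level of Acot1, and the size of its difference between groups, are therefore uncertain. Sequence shared with Acot2 and Acot3 to Acot6 is given above, and how reads that fit several of these genes were treated is not given in the sources used here.

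Fgf21 encodes a hormone made mainly by the fasted liver. It had 0, 3, 1, 2, 1 and 1 reads in Parkin KO libraries 1 to 6 and 3, 6, 10, 1, 3 and 0 reads in noninduced libraries 1 to 6, in all 8 and 23. Every library was at or below 0.648 CPM, and a count of 0 allows up to 0.200 CPM in Parkin KO 1 and up to 0.164 CPM in noninduced 6. No fold change is given at this depth.

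**Figure D1:**
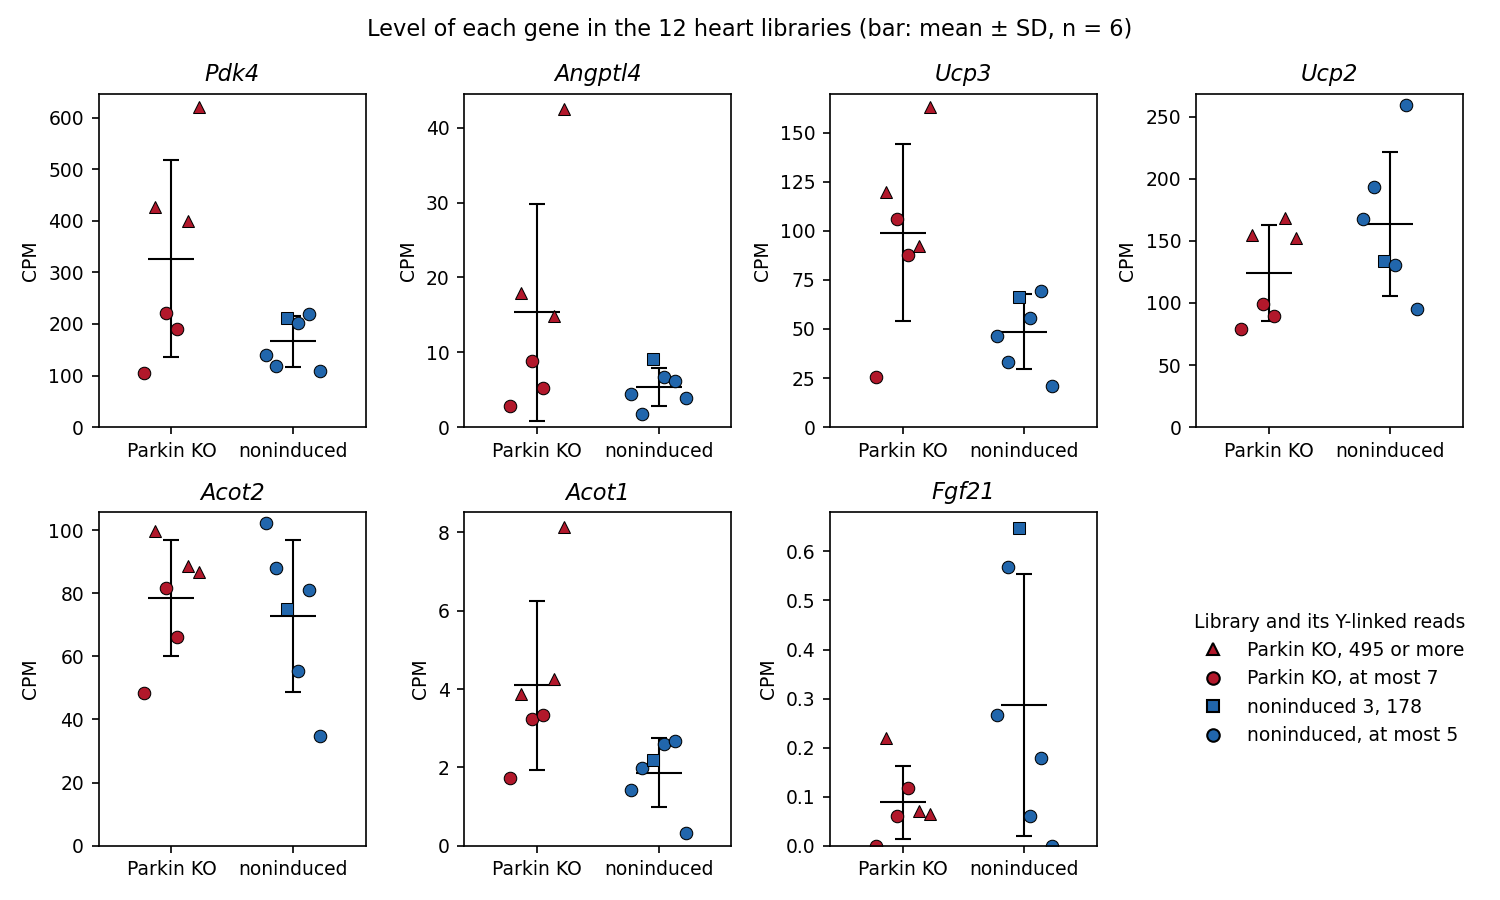
CPM of each of the 7 genes in every library, with Parkin KO hearts (red) left of noninduced hearts (blue) and bars for the mean ± SD (n = 6 each). Triangles are Parkin KO libraries with many Y-linked reads (495 or more), which hold the 3 highest values of Pdk4 and Angptl4, the square is noninduced 3 with 178, and circles are libraries with at most 7.

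Across all genes, none of the 13050 tested passed an adjusted p of 0.05 in edgeR's quasi-likelihood test (0.0%), and 1483 (11.4%) had an unadjusted p under 0.05, while DESeq2 called 10 genes, none of them among the 6 tested here. Of the 6 tested genes here, none passed the adjusted threshold and 4 (Pdk4, Angptl4, Ucp3 and Acot1) were among those 1483, all higher in Parkin KO. The background is 5.82% of all genes in that direction and 5.54% in the other, in which none of the 6 was found. A fold change above 0 was found for 5 of the 6 and for 52.0% of all genes. The median log2 fold change was 1.0 over the 6 and 0.01 over all 13050. None of the 6 had groups without overlap, against 45 genes of all tested (0.345%). Nothing is read from these counts, since the genes were listed with this comparison known.

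Within the Parkin KO group, the mean of each of the 6 tested genes was higher in the 3 hearts with many Y-linked reads than in the other 3. Pdk4 averaged 482 ± 121 CPM in Parkin KO 2, 5 and 6, 172 ± 60.1 CPM in Parkin KO 1, 3 and 4, and 158 ± 49.9 CPM in the 5 noninduced hearts with at most 5 such reads. Angptl4 averaged 25.1 ± 15.2 CPM in Parkin KO 2, 5 and 6, 5.60 ± 3.02 CPM in Parkin KO 1, 3 and 4, and 4.59 ± 1.95 CPM in those noninduced hearts. Neither gene overlapped between the Parkin KO sets, and in both the Parkin KO hearts with few Y-linked reads averaged close to the noninduced hearts. The lack of overlap was not particular to these genes. Acot1 (3.87 to 8.13 against 1.74 to 3.33 CPM), Acot2 (86.8 to 99.7 against 48.4 to 81.8 CPM) and Ucp2 (152 to 168 against 79.3 to 99.4 CPM) did not overlap between the Parkin KO sets either. The share of all genes that separate these sets was not counted, so nothing is read from it. An exact permutation test of 3 against 3 hearts cannot give a p below 0.1, so none was run.

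The uncoupling proteins are described in the same sets, and again nothing is read from overlap or its lack. Ucp3 averaged 125 ± 35.6 CPM in Parkin KO 2, 5 and 6, 73.0 ± 42.2 CPM in Parkin KO 1, 3 and 4 and 45.1 ± 18.9 CPM in the 5 noninduced hearts, with overlap between neighbouring sets. Ucp2 averaged 158 ± 8.74 CPM in Parkin KO 2, 5 and 6, 89.4 ± 10.1 CPM in Parkin KO 1, 3 and 4 and 169 ± 62.7 CPM in the 5 noninduced hearts. For Ucp2 the Parkin KO hearts with Y-linked reads were thus at the noninduced level and the other 3 were below it, with 1 noninduced heart (95.3 CPM) inside their range of 79.3 to 99.4 CPM.

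Leaving out the 4 libraries with more than 100 Y-linked reads left 3 Parkin KO and 5 noninduced hearts. The log2 fold change then was 0.13 (SE 0.281) for Pdk4 and 0.28 (SE 0.409) for Angptl4, and it was 0.69 (SE 0.433) for Ucp3, 0.63 (SE 0.490) for Acot1, -0.14 (SE 0.305) for Acot2 and -0.92 (SE 0.273) for Ucp2. A fit of all 12 libraries with the Y-linked level as a sex term gave 0.13 for Pdk4, 0.17 for Angptl4, 0.60 for Ucp3, 0.62 for Acot1, -0.12 for Acot2 and -0.79 for Ucp2. No noninduced library held as many Y-linked reads as Parkin KO 2, 5 and 6, and for these 3 hearts sex and group cannot be told apart. Without noninduced 1 and 3, the libraries of highest Esr1, the values were 1.0 for Pdk4, 1.68 for Angptl4, 1.13 for Ucp3, 1.11 for Acot1, 0.27 for Acot2 and -0.47 for Ucp2.

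**Figure D2:**
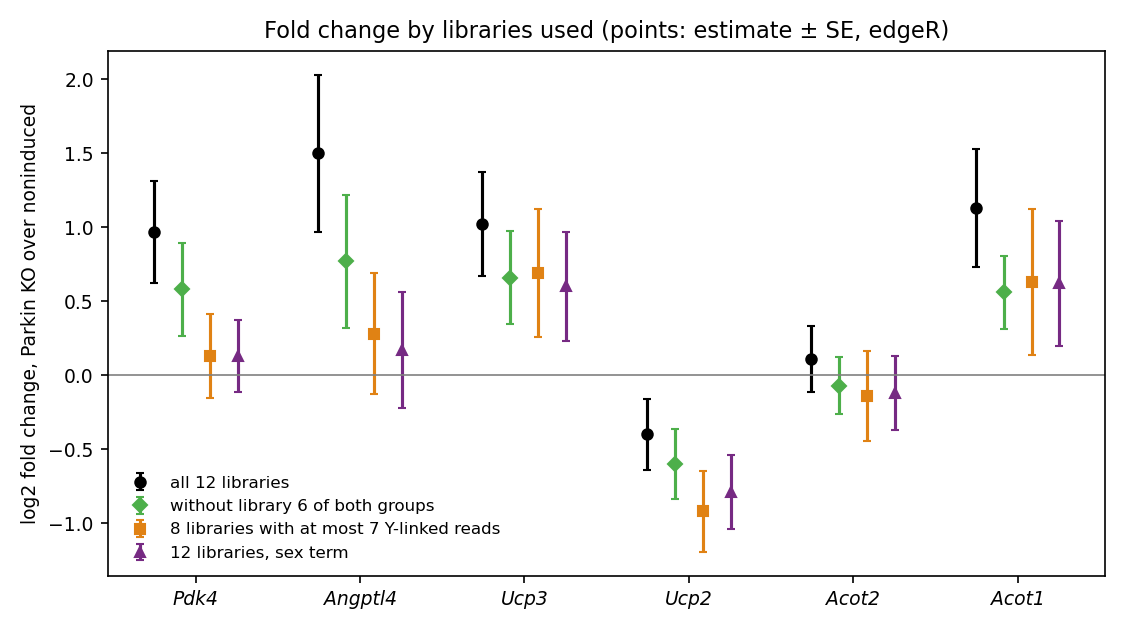
Log2 fold change of Parkin KO over noninduced (edgeR estimate ± SE) for the 6 tested genes with all 12 libraries, without library 6 of both groups, with the 8 libraries of at most 7 Y-linked reads, and with a sex term. Pdk4 and Angptl4 lie at 0.97 and 1.50 with all libraries and at 0.13 and 0.28 in the 8 libraries, Ucp3 and Acot1 stay above 0 and Ucp2 below 0 in all 4 settings shown, and Acot2 lies near 0.

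In deposited FPKM, the order of mean levels over the 12 hearts was Pdk4 (mean 74.5 FPKM), Acot2 (46.9), Ucp2 (34.9), Ucp3 (31.6), Acot1 (17.7), Angptl4 (5.87) and Fgf21 (0.233). Neighbours in this order were compared within hearts by an exact two-sided sign-flip permutation test on log2(FPKM + 0.1), adjusted over the 6 pairs by Benjamini-Hochberg. Pdk4 exceeded Acot2 by 0.49 ± 0.63 log2 units (SD, n = 12) in 10 of 12 hearts (permutation p = 0.0215, adjusted 0.0258), and Acot2 exceeded Ucp2 by 0.46 ± 0.43 in 10 of 12 (permutation p = 0.00488, adjusted 0.00732). Ucp2 and Ucp3 were not separated: Ucp2 was higher in 8 of 12 hearts, by 0.31 ± 0.92 (permutation p = 0.26, adjusted 0.26). Ucp3 exceeded Acot1 in 11 of 12 hearts (0.67 ± 0.45, permutation p = 0.00146, adjusted 0.00292), with the reservation on Acot1 above. In FPKM, Acot1 exceeded Angptl4 (2.02 ± 0.93) and Angptl4 exceeded Fgf21 (3.98 ± 1.68) in all 12, each at the smallest permutation p that 12 hearts allow (0.000488, adjusted 0.00146).

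The place of Acot1 depends on the readout. Its mean was 2.98 CPM against 10.3 CPM for Angptl4, and it had fewer reads than Angptl4 in 11 of 12 hearts. With counts scaled to the annotated exon length (CPM per 1000 bases of exon), Acot1 averaged 0.760 and Angptl4 2.92, and Acot1 was the lower of the pair in all 12 hearts, by -1.53 ± 0.79 log2 units (permutation p = 0.000488, adjusted 0.00146). Acot1 thus lay above Angptl4 in FPKM and below it in counts per length, and no order of the pair is given. On the same scale the other neighbours kept their order past the threshold except Ucp2 and Ucp3, which again were not separated (-0.04 ± 0.92, each the higher in 6 of 12 hearts, permutation p = 0.885, adjusted 0.885). This length joins the exons of all annotated transcripts. It is 2196 bases for Acot2, 6989 for Ucp2, 3135 for Ucp3 and 3919 for Acot1. The longest coding transcripts have 2196, 3988, 2448 and 2272 bases. The order with those lengths was not computed, so the order on this scale rests on the length chosen.

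In FPKM over the 8 hearts with at most 7 Y-linked reads, the upper part of the order was not separated. Pdk4 exceeded Acot2 by 0.20 ± 0.48 log2 units (adjusted exact permutation p = 0.266, higher in 6 of 8 hearts) and Acot2 exceeded Ucp2 by 0.40 ± 0.52 (adjusted exact permutation p = 0.105, higher in 6 of 8). Ucp3 over Acot1, Acot1 over Angptl4 and Angptl4 over Fgf21 passed there. Without noninduced 1 and 3, the same 5 of the 6 pairs passed as with all hearts.

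**Figure D3:**
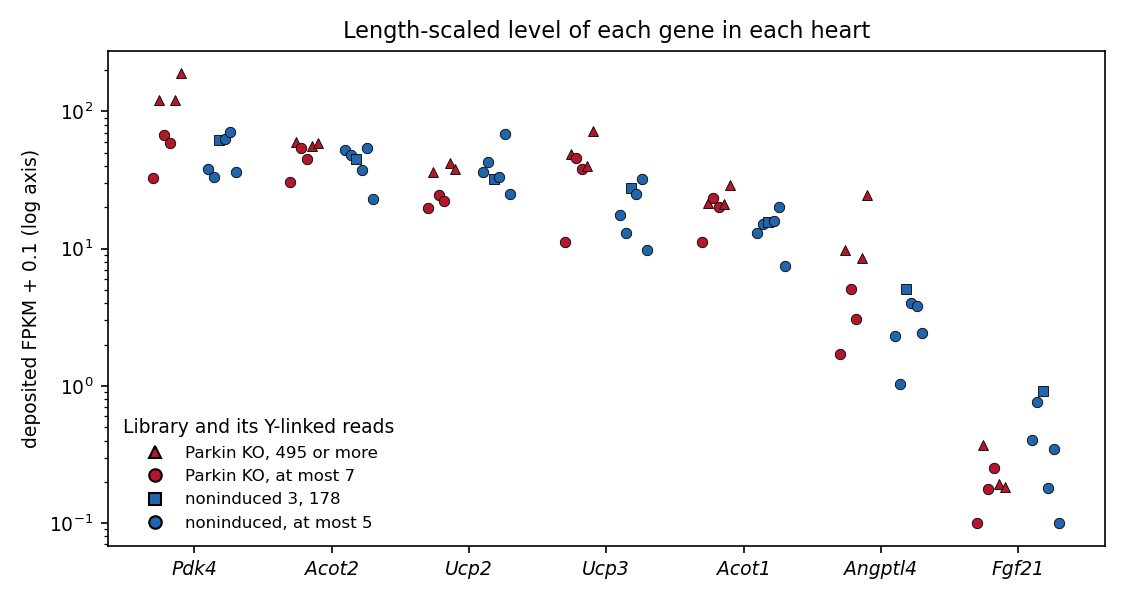
Deposited FPKM + 0.1 on a log axis for each gene in each heart, in the order of the mean, with Parkin KO (red) left of noninduced (blue) and the same symbols for Y-linked reads. Mean levels span 74.5 FPKM for Pdk4 to 0.233 FPKM for Fgf21, the place of Acot1 above Angptl4 turns in counts per length, and Ucp2 and Ucp3 exchange places between hearts.

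The order of the uncoupling proteins was the least uniform of the neighbouring pairs. The Ucp3 to Ucp2 ratio in FPKM was 0.562 to 1.87 in Parkin KO hearts (1.39 ± 0.535, SD, n = 6) and 0.299 to 0.870 in noninduced hearts (0.543 ± 0.220, SD, n = 6). In FPKM, Ucp2 was thus the higher of the pair in every noninduced heart. On the scale of counts per exon length, each gene was the higher in 6 of 12 hearts, so this order rests on the readout. This ratio combines the fold changes of both genes and is given as a description.

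These genes varied widely among hearts of a single group. From the lowest to the highest heart, Angptl4 spanned 15.1-fold in Parkin KO and 5.03-fold in noninduced hearts, Ucp3 spanned 6.40-fold and 3.30-fold, and Pdk4 spanned 5.93-fold and 2.01-fold. The within-group SD of log2 CPM was set beside that of the 500 genes closest in mean level, as a description. It was 1.13 for Angptl4, 0.93 for Acot1, 0.80 for Ucp3, 0.74 for Pdk4, 0.49 for Ucp2 and 0.48 for Acot2, where the median of genes of like level was between 0.18 and 0.33. For each of the 6 genes, at least 97.4% of the genes of like level had a smaller SD. In the 8 hearts with at most 7 Y-linked reads, the SD was 0.77 for Angptl4 and 0.50 for Pdk4, and at least 96.0% of the genes of like level had a smaller SD than each of the 6. Without noninduced 1 and 3 this share was at least 97.6%. By Dixon's criterion no heart was an outlier of its group in CPM, and on the log2 scale Acot1 in noninduced 6 and Ucp3 in Parkin KO 1 were.

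The hearts that were high in one gene tended to be high in others. After each group's mean was subtracted, so that the difference between groups did not enter, all 15 pairs of the 6 tested genes had a positive correlation of log2 CPM over the 12 hearts, from 0.37 to 0.95. Within the noninduced group alone, Angptl4 had r = -0.08 with Acot2 and -0.13 with Ucp2, and all other pairs stayed positive. With permutation within groups, and Benjamini-Hochberg adjustment over 51 relations (these 15 and 36 with library measures), 6 of the 15 pairs passed 0.05. The share of pairs of other genes with such correlations was not counted, so these numbers of pairs are not read as particular to the list. For Angptl4 with Pdk4, Pearson's r was 0.95 (permutation p = 0.00013, adjusted 0.00133) and Spearman's rho 0.90 (permutation p = 0.00092, adjusted 0.00938). Without the 2 hearts farthest from the median of the first-named gene, r was 0.97.

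Ucp3 with Pdk4 had r = 0.88 (permutation p = 0.00012, adjusted 0.00133) and rho = 0.87 (permutation p = 0.00012, adjusted 0.00306), and r was 0.79 without the 2 farthest hearts. Of the pairs that passed, this alone also passed within the noninduced group on its own, at r = 0.94 over 6 hearts (adjusted exact permutation p = 0.0236), and in the 8 hearts with at most 7 Y-linked reads, at r = 0.95 (adjusted permutation p = 0.0258). For Angptl4 with Pdk4 those values were 0.83 and 0.85 and did not pass. The remaining pairs that passed over 12 hearts were Acot1 with Pdk4 (r = 0.72, rho = 0.75), Acot1 with Ucp3 (0.81 and 0.80), Angptl4 with Ucp3 (0.81 and 0.88) and Acot2 with Ucp2 (0.80 and 0.80), with adjusted permutation p between 0.00133 and 0.0145 for r and between 0.00938 and 0.0143 for rho. Without the 2 farthest hearts, Acot2 with Ucp2 had r = 0.61 and Acot1 with Ucp3 had r = 0.82, and neither passed. Without noninduced 1 and 3, all 6 pairs passed, at r between 0.72 and 0.95.

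In log2 CPM, genes that neighbour each other were not the most alike. Acot1 with Acot2 had r = 0.71, with an adjusted permutation p of 0.0781, and r = 0.30 without the 2 farthest hearts. In FPKM this pair had r = 0.88 and passed (adjusted permutation p = 0.0276), the highest r of the pairs with Acot2. The likeness of Acot1 and Acot2 thus depends on the readout, and these genes may share reads. Ucp2 with Ucp3 had r = 0.61 in log2 CPM and 0.62 in FPKM and passed in neither. Ucp3 resembled Pdk4 on another chromosome more than its neighbour Ucp2.

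**Figure D4:**
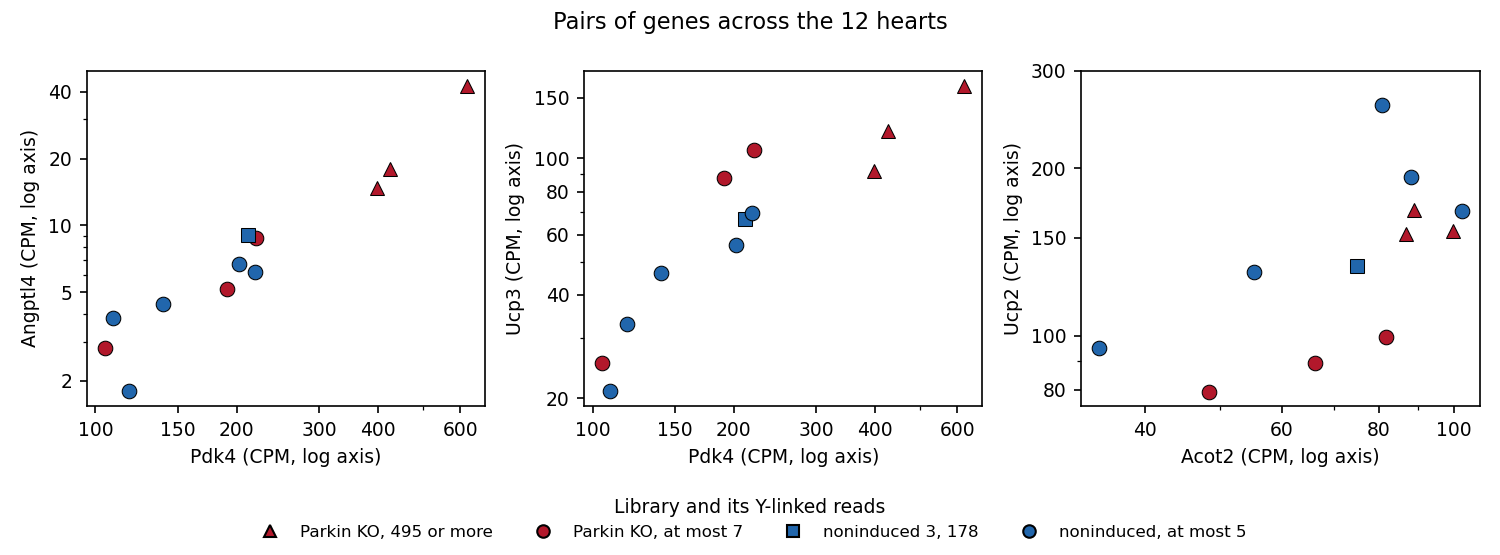
CPM on log axes in each heart for Angptl4 against Pdk4, Ucp3 against Pdk4 and Ucp2 against Acot2, with Parkin KO in red, noninduced in blue and triangles for Parkin KO hearts with at least 495 Y-linked reads. The blue and the red points each run from low left to high right, with group-centred r of 0.95, 0.88 and 0.80 over 12 hearts.

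Other fat-burning genes varied along with some of the 7 from heart to heart. The mean log2 CPM of the tested genes of a list of 38 PPAR target and fatty acid oxidation genes, none of them among the 7, had a group-centred r of 0.93 with Ucp3 (rho = 0.98, permutation p = 1e-05, the smallest that 100000 permutations can give, adjusted 0.00051), 0.93 with Acot1 (adjusted permutation p = 0.00348), 0.84 with Pdk4 (0.00133) and 0.75 with Angptl4 (0.0257). Within the noninduced group alone the r was 0.98 with Ucp3 and 0.90 with Pdk4, both past the threshold by exact permutation. In the 8 hearts with at most 7 Y-linked reads the list passed with Ucp3 (r = 0.90) and Pdk4 (r = 0.89), each at an adjusted permutation p of 0.0258. It did not pass there with Acot1 (r = 0.94, 0.119) or Angptl4 (r = 0.61, 0.262). Without noninduced 1 and 3 it passed with Ucp3, Acot1 and Pdk4, but not with Angptl4 (r = 0.73, adjusted permutation p = 0.0548). Of the remaining measures, only the summed adipocyte markers passed over all 12 hearts, with Angptl4 at r = 0.78 (adjusted permutation p = 0.00714) and Pdk4 at r = 0.67 (0.0168), while Spearman's rho did not pass for either (adjusted 0.0955 and 0.221). In the 8 hearts with at most 7 Y-linked reads neither passed (r = 0.87 and 0.57, adjusted permutation p = 0.119 and 0.262). Without noninduced 1 and 3 both passed (r = 0.77 and 0.66). Of the 9 adipocyte markers, 8 together summed to 0.213 to 2.46 CPM in the Parkin KO group and 0.259 to 9.32 CPM in noninduced libraries, so the sum is nearly all Fabp4, which capillary endothelium also expresses, at 258 to 352 CPM in the Parkin KO group and 174 to 284 CPM in noninduced libraries. The summed macrophage markers, the share of mitochondrial DNA counts and the ratio of the clock genes Dbp and Arntl passed with none of the 6.

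The immediate-early genes, which answer handling and stress within minutes, ran against all 6 tested genes in the Parkin KO hearts, past the threshold with Pdk4 and Ucp3. The mean log2 CPM of the 11 genes passed with none of the 6 over all 12 hearts, at r = -0.62 with Pdk4 (adjusted permutation p = 0.0696), -0.62 with Angptl4 (0.0781) and -0.52 with Ucp3 (0.190). Within the Parkin KO group alone it passed with Ucp3 (r = -0.99, adjusted exact permutation p = 0.0354) and Pdk4 (r = -0.90, 0.0425), where within the noninduced group r was -0.01 and -0.30. Acot1 (r = -0.94, adjusted exact permutation p = 0.068), Angptl4 (-0.90, 0.0506), Acot2 (-0.85, 0.0735) and Ucp2 (-0.71, 0.117) had the same sign within the Parkin KO group and did not pass. Without noninduced 1 and 3 it passed with Angptl4 (r = -0.88, adjusted permutation p = 0.0072) and Pdk4 (r = -0.79, 0.0196), and in FPKM it passed with the same genes at r = -0.66 and -0.69. Within the Parkin KO group alone, the summed adipocyte markers, which are nearly all Fabp4, also passed with 2 genes. These were Acot2 (r = 0.94, adjusted exact permutation p = 0.0425) and Ucp2 (r = 0.95, 0.0354), where r within the noninduced group was -0.45 and -0.37. Whether the relations differ between the groups was not tested.

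The genes of at least 5 CPM whose group-centred level was most like each of the 6, by Pearson's r over 12 hearts and without a test, were picked from 9697 genes. For Pdk4 they were Ehhadh (0.91), Cyp27a1 (0.90) and Adarb1 (0.88), for Angptl4 Mtx1 (0.93), Txnip (0.89) and Ehhadh (0.89), and for Ucp3 Fbp2 (0.94), Lipe (0.92) and Ehhadh (0.91). Ehhadh, an enzyme of peroxisomal fat oxidation, was among the 3 nearest of all these. For Acot1 they were Slc22a3 (0.98), Ech1 (0.97) and Acaa2 (0.95), where Ech1 and Acaa2 are enzymes of fatty acid oxidation. For Ucp2 they were C3 (0.92), Slit3 (0.91) and Ppl (0.88), and for Acot2 Slc25a22 (0.95), Rab11b (0.93) and Lpcat3 (0.93). The lists of Acot1, Ucp2 and Acot2 each shared no gene with any other list.

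Of the 38 listed PPAR target and fat oxidation genes, 32 were tested, 31 had a log2 fold change above 0 against 52.0% of all genes, and none passed the adjusted threshold (0.0% of all genes). Their median log2 fold change was 0.31, against 0.01 over all genes. An unadjusted p under 0.05 was found for 16, all higher in Parkin KO, against 5.82% of all genes. In the 8 hearts with few Y-linked reads, 28 of 32 were above 0 with a median of 0.20, against 49.6% of all genes, and with a sex term 27 were above 0 with a median of 0.17, against 50.2%. This list, too, was chosen with earlier results known.

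The listed genes of highest FPKM, and the textbook fasting genes Cpt1a and Plin2, show the size of these differences, with adjusted p from edgeR's quasi-likelihood test. Fabp3, the fatty acid carrier of heart muscle, averaged 4426 ± 588 CPM in the Parkin KO group and 3771 ± 247 CPM in noninduced hearts (log2 fold change 0.23, adjusted p = 0.438). Ech1, of the oxidation of unsaturated fats, averaged 1293 ± 206 and 925 ± 214 CPM in the Parkin KO group and noninduced hearts (0.48, adjusted p = 0.417). Acadm, the medium-chain dehydrogenase, averaged 819 ± 107 and 642 ± 135 CPM (0.35, adjusted p = 0.424), and Acaa2, the thiolase of the last step of the cycle, 636 ± 91.6 and 486 ± 129 CPM (0.39, adjusted p = 0.438), again in Parkin KO and noninduced hearts. Lpl, the lipase that Angptl4 inhibits, had a fold change of 0.06 and Hadha, a subunit of the trifunctional protein, of 0.13.

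Cpt1a, a gate for fatty acids at the mitochondrion, averaged 97.5 ± 22.1 CPM in the Parkin KO group and 74.0 ± 15.0 CPM in noninduced hearts (0.40, adjusted p = 0.424). The lipid droplet protein Plin2 averaged 59.1 ± 7.62 CPM in Parkin KO hearts and 48.7 ± 9.01 CPM in noninduced hearts (0.28, edgeR adjusted p = 0.428). For each of those given with its SD, the ranges of 1 SD around the group means overlapped, and none of the differences passed over all genes.

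The receptors themselves did not pass either. Ppara averaged 118 ± 15.2 CPM in the Parkin KO group and 128 ± 24.6 CPM in noninduced hearts (log2 fold change -0.12, edgeR adjusted p = 0.707), Ppard 71.9 ± 6.42 and 88.8 ± 21.2 CPM (-0.30, 0.431), and Pparg 7.87 ± 2.07 and 6.61 ± 0.760 CPM (0.25, 0.551). The coactivator gene Ppargc1a averaged 101 ± 38.3 CPM in the Parkin KO group and 108 ± 37.8 CPM in noninduced hearts (-0.10, edgeR adjusted p = 0.885). Of the 10 listed receptors, partners and coactivators, 3 had a fold change above 0, with a median of -0.06.

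The relatives of the 7 genes showed no common direction. Of 24 listed relatives and Fgf21 receptor genes, 13 were tested, 6 were above 0, the median log2 fold change was -0.03 and none passed. Pdk2, the kinase of highest level in these hearts, had 485.5 ± 53.8 FPKM in Parkin KO and 540.4 ± 127 FPKM in noninduced hearts, far above the 98.5 ± 56.9 and 50.5 ± 16.5 FPKM of Pdk4 in these groups, with a log2 fold change of -0.20 in counts. Pdk1 had a fold change of 0.20. The other thioesterases tested (Acot6, Acot7, Acot8, Acot9, Acot11 and Acot13) lay between -0.25 and 0.21. Among the angiopoietin-like genes, Angptl2 had a fold change of -0.34, Angptl6 of 0.02, Angptl7 of -0.86 and Angptl1, under 2 CPM, of 1.10, and the Fgf21 receptor gene Fgfr1 had -0.11.

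Markers of cell types are given beside these values. The 9 heart muscle markers summed to 90675 to 108232 CPM in the Parkin KO group and 68754 to 98381 CPM in noninduced libraries, and all 9 had a fold change above 0. The endothelial markers summed to 1081 to 1234 CPM in the Parkin KO group and 1085 to 1240 CPM in noninduced libraries. The 5 atrial markers differed most in median log2 fold change, at -4.32. They summed to 150.5 to 1530 CPM (median 303) in the Parkin KO group and 116 to 5763 CPM (median 1914) in noninduced libraries, and all 5 had a fold change below 0 and an unadjusted p under 0.05 in edgeR, against 5.54% of all genes in that direction, though none passed the adjusted threshold. The 11 immediate-early genes summed to 73.6 to 338 CPM in the Parkin KO group and 132 to 784 CPM in noninduced libraries, and all 11 had a fold change below 0. The part of these in the levels of the 7 genes was not tested, beyond the correlations above.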

How the data were processed

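The submitters' processing notes name the build mm10 and the tools Bowtie2, TopHat2 2.0.10, HTSeq, Cufflinks 2.1, DESeq and edgeR, without roles or settings. The authors deposited a table of raw counts per gene (23457 genes, of which 4873 had no read) and a table of FPKM (23369 genes). The 7 genes, the gene lists and the tests were chosen with earlier results of these data known. A gene that the rule below names is not reported here.

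Counts were fitted with edgeR 4.0.16 in R 4.3.3 (TMM factors, filterByExpr, quasi-likelihood test with group as the only term, Benjamini-Hochberg over 13050 genes, threshold 0.05), and CPM uses the same factors. The fit was tested on simulated data. A single count was worth 0.0548 to 0.0948 CPM. Correlations used log2 CPM with 0.5 counts added and 100000 permutations within groups. Levels between genes were compared in the deposited FPKM with 0.1 added, and 4 genes listed at 0 FPKM with over 1000 counts were left out of FPKM fits. Alternatives were DESeq2 1.42.0, upper-quartile factors, no count filter, limma 3.58.1 on log2(FPKM + 1) and log2(FPKM + 0.1), a replicate block, each library left out in turn, no noninduced 1 and 3, a sex term and libraries with few Y-linked reads. Leaving out library 6 of both groups, the correlations, order and spread in the 8 hearts with few Y-linked reads and without noninduced 1 and 3, and counts per exon length were chosen after seeing the data. Genes outside the 7 were named by rule: the 6 listed PPAR target and fat oxidation genes of highest FPKM with Cpt1a and Plin2, 4 receptors and coactivators, relatives of at least 1 CPM, and the 3 genes most like each gene. Sequences were read from GENCODE M21 transcripts and RefSeq promoters. No pair of libraries of a group agreed within sampling noise.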

Additional observations from a re-analysis of the deposited data

Results flagged for a closer look

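On the log2 CPM scale, a heart stood far below the rest of its group for 2 of the 7 genes, in 14 combinations of gene and group examined. Acot1 was 0.329 CPM in noninduced 6, and the gap to the next heart was 0.698 of the group's range. Ucp3 was 25.4 CPM in Parkin KO 1, with a gap of 0.667 of the range, where Dixon's critical value for 6 samples is 0.625. The criterion picks out about 1 in 20 groups by chance, and neither heart was picked out in unlogged CPM. Without noninduced 6 the log2 fold change of Acot1 was 0.88, and without Parkin KO 1 that of Ucp3 was 1.22.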

How the results depend on the processing

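The fold change kept its sign under all 22 alternatives for Angptl4, Acot1, Ucp2, Ucp3 and Pdk4 and under 18 for Acot2. The median over the 6 tested genes, 1.0 with all libraries, was 0.15 with a sex term, 0.20 in the 8 hearts with few Y-linked reads, 0.86 with the replicate block and 0.74 to 1.19 with any library left out. Angptl4 moved to 0.17 and Pdk4 to 0.13 with a sex term, and Ucp2 to -0.92 in the 8 hearts. Leaving out Parkin KO 6 gave 0.86 for Angptl4, 0.80 for Acot1, 0.82 for Ucp3 and 0.68 for Pdk4. Without library 6 of both groups Angptl4 stood at 0.77, Acot1 at 0.56, Ucp3 at 0.66 and Pdk4 at 0.58. Genes past the adjusted threshold numbered 0 in edgeR, 10 in DESeq2, 1 without noninduced 1 and 3, and 0 to 0 with any library left out. Genes at an unadjusted p under 0.05 numbered 1483, 918 with a sex term, 628 in the 8 hearts, 1700 with the replicate block and 932 to 2131 with a library left out, the lowest without noninduced 2, noninduced 1 (972) or Parkin KO 6 (944). Same-numbered hearts did not deviate together (r from -0.0973 to 0.158), and the main fit did not pair them. Such correlations cannot show whether the numbers mark shared litters, days or batches. Of 51 relations between genes and measures, 12 passed over 12 hearts, 12 within the Parkin KO group, 3 within the noninduced group, 3 in the 8 hearts, 8 without the 2 farthest hearts, 13 without noninduced 1 and 3 and 19 in FPKM. The difference of Acot1 over Angptl4 turned to -1.53 and that of Ucp2 over Ucp3 to -0.04 in CPM per exon length, and Pdk4 over Acot2 (0.20) and Acot2 over Ucp2 (0.40) no longer passed in the 8 hearts. The cause of these shifts was not tested. Fewer hearts raise the p that permutation allows. Depth limits Acot1 and Fgf21.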
